A study of Rattus norvegicus with 10 samples.

Results

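The Nkx genes encode homeodomain transcription factors. 5 of them were analysed here in rat primary neuron cultures exposed to inhibitors of histone deacetylases (HDACs), the enzymes that take acetyl groups off histones. 6 genes of the series have a symbol that begins with Nkx in the readable rows of the study's supplemental list of differentially expressed genes, of 32883 genes counted, and the 5 described are Nkx1-1, Nkx2-3, Nkx2-4, Nkx2-5 and Nkx6-1. The readable rows hold upregulated genes, all 5 members described stood in the sheet for trichostatin A (TSA) and 4 in the sheet for sodium butyrate (NaB), all but Nkx2-4. Their rise with the drugs is given below as a description without a test. The members were thus selected on the study's own comparisons of treated with control libraries. Nkx1-2, Nkx2-1, Nkx2-2, Nkx2-6, Nkx2-8, Nkx3-2, Nkx6-2 and Nkx6-3 could not be paired with identifiers of the count table and were not analysed here. Members of the family that fell could not enter a choice made from upregulated genes, and a member that rose may be missing from it. The 5 members thus say nothing of the direction of the other Nkx genes.

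Messenger RNA was sequenced in bulk from cortical cultures of newborn (P0 to P1) Wistar rats, which hold neurons together with glia, and the drugs were added on day 14 in vitro and left in the medium. 3 libraries came from cultures with 100 nM TSA for 19 h and 3 from their controls. 2 libraries came from cultures with NaB for 24 h and 2 from their controls, at a dose that the study's methods give as 5 mM and the sample labels as 5 µM. The NaB libraries were taken from a separate project, so that drug, hours and project change together and cannot be told apart. Each treated culture shared a plate with its control. The libraries held 26070908 to 27649249 counted reads, and 1 read was worth 0.905 to 1.07 normalized counts. The markers fixed for neurons, cortex, astrocytes, oligodendrocytes and microglia were not among the genes whose symbols could be paired, so the labelled cell type could not be checked.

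Nkx factors bind DNA through the homeodomain, many of them recruit corepressors of the TLE/Groucho family, and in the embryonic neural tube they set up the ventral progenitor domains under the influence of Sonic hedgehog. Other members of the family are best known outside the nervous system, in heart, gut, spleen and pancreas. Histone deacetylases are part of the complexes through which such repressors act, and their inhibitors raise the acetylation of histones.

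The promoters of the 5 members are shown because the members rose together, and their start regions can be compared for shared letters. They are the 250 bases before the annotated start of each gene from RefSeq, build GRCr8, at chr14:8273988-8274237 for Nkx6-1, chr10:16848350-16848599 for Nkx2-5, chr1:252427106-252427355 for Nkx2-3, chr3:154970301-154970550 for Nkx2-4 and chr14:81520956-81521205 for Nkx1-1. Nkx2-4 lies on the minus strand and the others on the plus strand, and each sequence is written 5′ to 3′ along its gene. The reads had been mapped to another build, and the genes were matched by symbol. The capitals mark matches, on either strand, to GGGCGG (the core of a GC box), CCAAT and TNAAGTG (the core bound by factors of the Nkx2 group). TAATTA, a homeodomain core, and TATAAA were searched as well.
Nkx6-1: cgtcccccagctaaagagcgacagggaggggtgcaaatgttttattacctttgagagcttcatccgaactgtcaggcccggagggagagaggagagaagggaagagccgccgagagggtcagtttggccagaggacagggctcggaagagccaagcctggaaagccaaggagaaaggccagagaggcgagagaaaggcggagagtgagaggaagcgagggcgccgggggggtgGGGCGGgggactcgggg
Nkx2-5: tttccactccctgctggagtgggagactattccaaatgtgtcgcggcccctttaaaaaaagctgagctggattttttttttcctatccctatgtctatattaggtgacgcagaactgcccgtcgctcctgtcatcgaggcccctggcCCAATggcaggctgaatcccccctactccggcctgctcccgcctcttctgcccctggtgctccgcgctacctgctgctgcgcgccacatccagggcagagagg
Nkx2-3: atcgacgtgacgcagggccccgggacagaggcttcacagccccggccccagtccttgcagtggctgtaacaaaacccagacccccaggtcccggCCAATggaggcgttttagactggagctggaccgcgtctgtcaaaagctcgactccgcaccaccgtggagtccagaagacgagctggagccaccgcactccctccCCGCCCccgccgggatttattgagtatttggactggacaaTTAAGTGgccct
Nkx2-4: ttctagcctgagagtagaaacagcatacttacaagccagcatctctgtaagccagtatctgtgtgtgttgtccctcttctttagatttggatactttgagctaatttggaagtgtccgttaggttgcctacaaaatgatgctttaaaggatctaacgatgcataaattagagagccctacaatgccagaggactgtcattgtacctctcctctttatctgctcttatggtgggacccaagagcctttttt
Nkx1-1: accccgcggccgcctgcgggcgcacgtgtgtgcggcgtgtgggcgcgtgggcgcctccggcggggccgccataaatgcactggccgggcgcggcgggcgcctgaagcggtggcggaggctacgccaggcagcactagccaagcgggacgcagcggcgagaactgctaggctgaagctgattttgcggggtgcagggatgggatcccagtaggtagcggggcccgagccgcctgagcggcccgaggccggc

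None of the motifs searched was common to the 5 promoters, and no search for other shared motifs was made. GGGCGG occurred 17 to 12 bases before the start of Nkx6-1 and, on the minus strand as CCGCCC, 52 to 47 bases before that of Nkx2-3. It is found in 30.471% of all 33465 promoters of the same length. CCAAT occurred in Nkx2-5, 103 to 99 bases before the start, and in Nkx2-3, 156 to 152 bases before it, against 34.018% of all promoters. Nkx2-3 also held TTAAGTG, 12 to 6 bases before its start, a match to TNAAGTG, which 9.894% of promoters hold. The marked matches do not overlap each other. None of the 5 held TAATTA (4.859% of all promoters) or TATAAA (12.933%), and Nkx2-4 and Nkx1-1 held none of the letters searched. A match is a run of letters and not a measured binding site.

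The GC content was 74.4% in Nkx1-1, 62.4% in Nkx6-1, 62.0% in Nkx2-3 and 58.0% in Nkx2-5, with a median of 51.2% over all promoters. Nkx2-4 stood apart at 42.0%. Its 250 bases held 2 CpG dinucleotides, at 0.181 of the number that its C and G content would give, while Nkx1-1 held 33, at 0.983. The median of this ratio was 0.383 over all promoters, 0.592 over the 1631 promoters of genes whose symbols could be paired, and 0.794 over the 6 other Nkx genes with a promoter. These are values of single windows and no test was made on them.

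**Figure D1:**
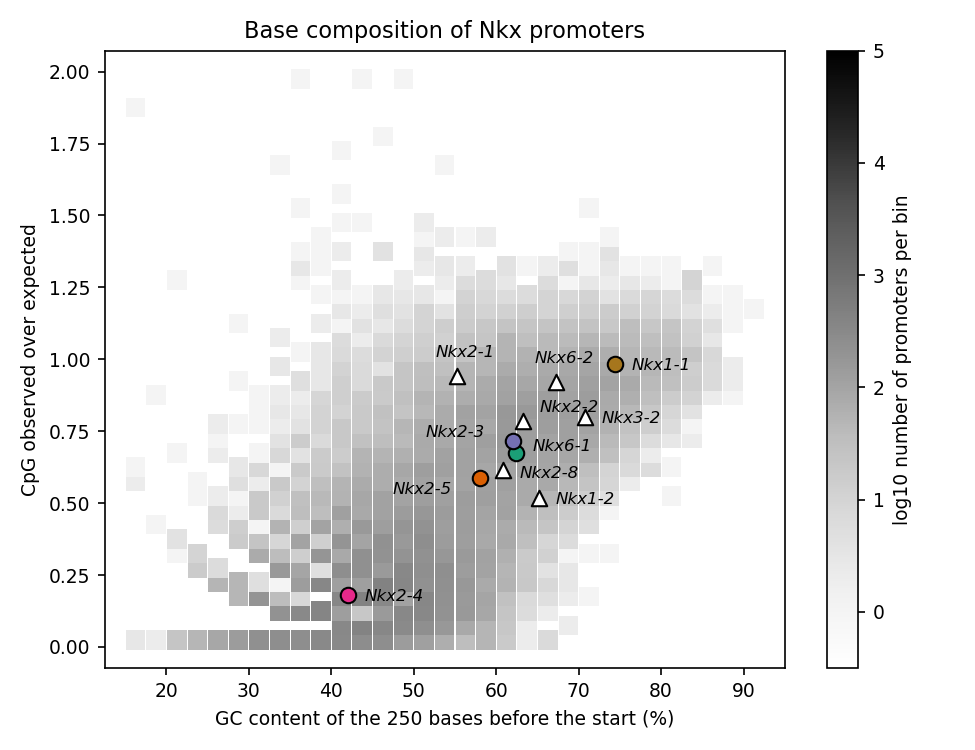
GC content (x axis, percent) against the observed over expected number of CpG (y axis) in the 250 bases before the start; grey squares are bins of all 33465 promoters, shaded by log10 number, coloured circles the 5 members and white triangles 6 other Nkx genes. Nkx2-4, at 42.0% and 0.181, lies far below the other Nkx promoters.

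In the controls the members were close to silent. Of 25 values (5 genes in 5 control libraries), 11 were 0 reads and the highest was 4 reads, whereas the treated libraries held between 7 and 156 reads. With both drugs, every treated library lay above every control library of the same experiment in all 5 members. The rule selected for this rise, and 33.1% of the 15717 tested genes showed the same separation with TSA and 40.2% with NaB. Because the cultures were sequenced in bulk, more cells that use a gene and more RNA per cell cannot be told apart. In the following, a ratio is the summed reads of the treated libraries over those of the controls, each sum divided by the summed size factors of its libraries (so it can differ slightly from the quotient of the mean normalized counts), with its exact 95% interval, which covers counting error only, and a log2 fold change is the difference of mean log2(normalized count + 1), which is smaller than the ratio for genes that start near 0. The genes are not compared in level with each other, since no transcript lengths were used.

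Nkx6-1 (ENSRNOG00000002149) is a factor of ventral neural progenitors and motor neurons in the spinal cord and of insulin-producing beta cells in the pancreas. It had 0, 0 and 1 read in the TSA controls and 156, 100 and 136 reads in the TSA libraries, at normalized counts of 146.3, 90.5 and 132.1. The NaB controls had 1 read each, and the NaB libraries had 93 and 85 reads, at 87.9 and 81.9 normalized counts. The gene was thus read at most once in any control, and the groups did not overlap with either drug. The ratio was 349.8 with TSA (interval 62.4 to 13850, set against 1 control read) and 81.7 with NaB (22.3 to 679.9). On the log2 scale Nkx6-1 changed by 6.58 (standard error 0.36, n = 3 and 3) with TSA, which was rank 5 of the 15717 tested genes, and by 5.40 (standard error 0.44, n = 2 and 2) with NaB, rank 32.

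Nkx2-5 (ENSRNOG00000020747), the cardiac factor of the group, had the reverse order. Its reads were 0, 1 and 1 in the TSA controls and 77, 40 and 61 with TSA, at normalized counts of 72.2, 36.2 and 59.3. The NaB controls had 1 and 0 reads and the NaB libraries 145 and 138, at 137.0 and 133.0. The 2 NaB libraries differed from each other by less than the counting error, and both lay above the highest TSA library. The ratio was 79.4 with TSA (21.7 to 660.8) and 259.8 with NaB (46.3 to 10300, set against 1 control read). The log2 fold change was 5.09 (standard error 0.43) with TSA, rank 51, and 6.58 (standard error 0.53) with NaB, where it was rank 1 of all genes tested.

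Nkx1-1 (ENSRNOG00000005113) belongs to the less studied NK1 group. It had 0, 1 and 0 reads in the TSA controls and 33, 26 and 33 with TSA, and 1 and 2 reads in the NaB controls against 20 and 27 with NaB. The treated libraries of both drugs overlapped, at 30.9, 23.5 and 32.1 normalized counts with TSA and 18.9 and 26.0 with NaB. The ratio was 82.1 with TSA (14.4 to 3277) and 14.4 with NaB (4.63 to 72.2). The log2 fold changes were 4.55 (standard error 0.41, rank 97) with TSA and 3.21 (standard error 0.51, rank 344) with NaB.

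Nkx2-3 (ENSRNOG00000016656), a factor of gut and spleen development, was the only member without a read in all 3 TSA controls. With TSA it had 17, 7 and 34 reads, at 15.9, 6.33 and 33.0 normalized counts, and its coefficient of variation of 73.4% compared with 22.7% from counting. Set against 3 reads over the control group it was at least 17.3-fold higher with TSA, a value that rested on TSA replicate 3, without which it was at least 10.5-fold, and the exact interval of the reads began at 13.6. With NaB it had 22 and 37 reads, at 20.8 and 35.7, against 1 read in each control, a ratio of 27.1 (7.17 to 228.9). The log2 fold changes were 4.02 (standard error 0.54) and 3.79 (standard error 0.67).

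Nkx2-4 (ENSRNOG00000012647), a close relative of the thyroid and forebrain factor Nkx2-1, had the smallest change and the fewest reads. The TSA controls had 1, 0 and 3 reads and the TSA libraries 21, 13 and 13, at 19.7, 11.8 and 12.6 normalized counts. The NaB controls had 4 and 0 reads and the NaB libraries 11 and 9, at 10.4 and 8.68. The ratio was 10.5 with TSA (3.83 to 40.1) and 4.59 with NaB (1.54 to 18.5). The log2 fold change was 2.90 (standard error 0.67, rank 452) with TSA and 2.21 (standard error 0.82, rank 776) with NaB. The NaB value was set by the controls: without NaB control replicate 1 it was 3.39, and without NaB control replicate 2 it was 1.03. Nkx2-4 is thus the member nearest to the edge of the rule, listed for TSA and not for NaB.

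**Figure D2:**
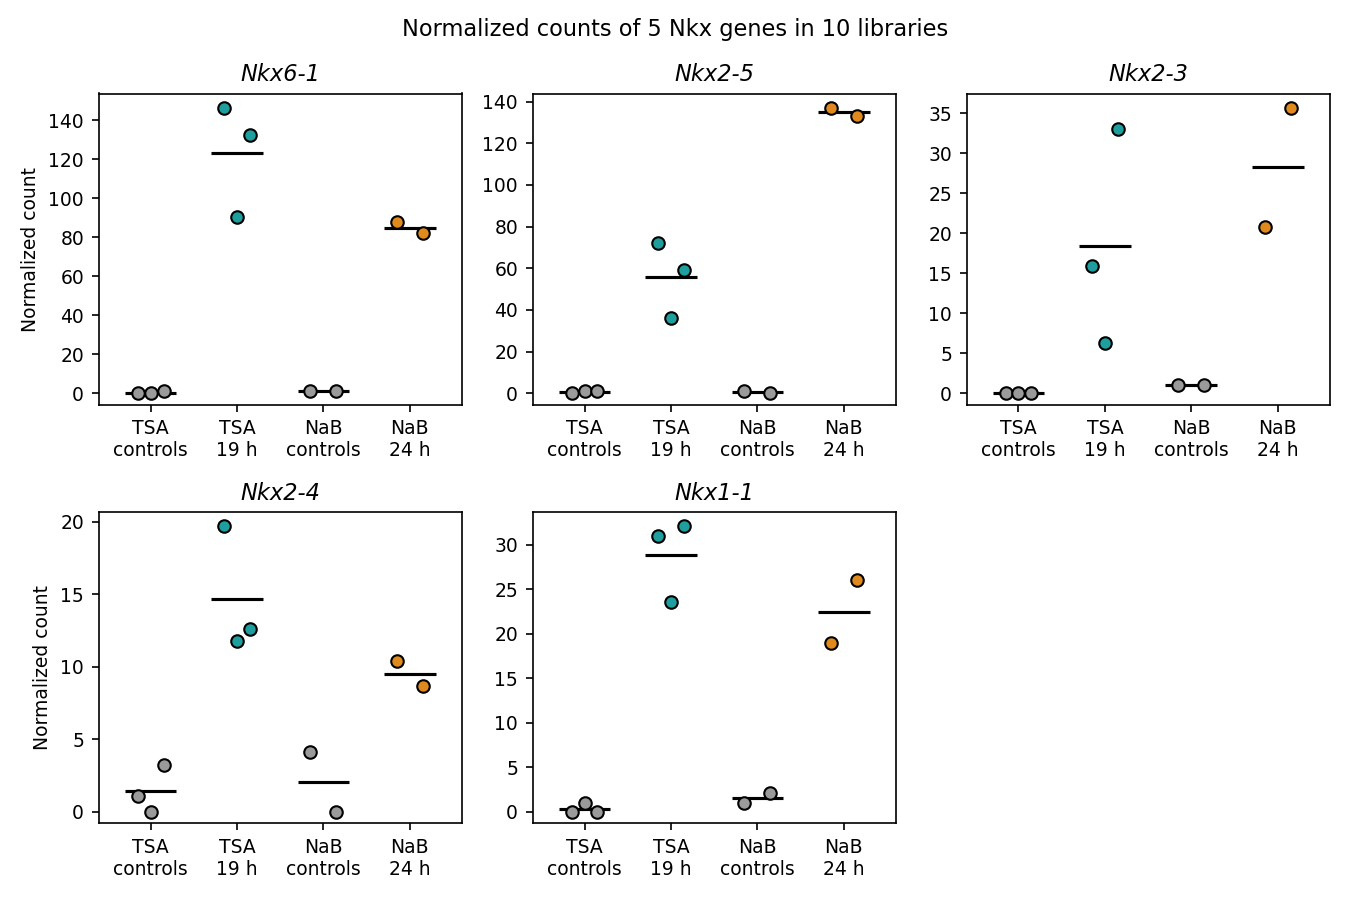
Normalized counts (y axis, linear, a separate scale in each panel) of the 5 Nkx genes in the 4 groups; each point is a library and each bar the group mean (n = 3, 3, 2 and 2). All treated libraries lie above the controls, and the NaB libraries lie below the TSA libraries in Nkx6-1 and Nkx2-4 and above them in Nkx2-5.

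Against the background of all tested genes the members lay at the upper end, as the rule required. The median log2 fold change of the 5 was 4.55 with TSA (also 4.55 with Nkx2-3 at its bound) and 3.79 with NaB, beside 0.02 over all tested genes with each drug. 22.5% of the tested genes were called higher with TSA and 21.2% with NaB, a call being a Benjamini-Hochberg adjusted p below 0.05 in limma with a log2 change of 0.5 or more in size. 4 members, Nkx6-1, Nkx2-5, Nkx2-3 and Nkx1-1, had at most 3 reads in each of the 5 controls, as had 1.48% of the tested genes. With library totals in place of the deposited scaling, the median over all genes moved to 0.20 with TSA and 0.13 with NaB, and that of the members to 4.65 and 3.87.

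**Figure D3:**
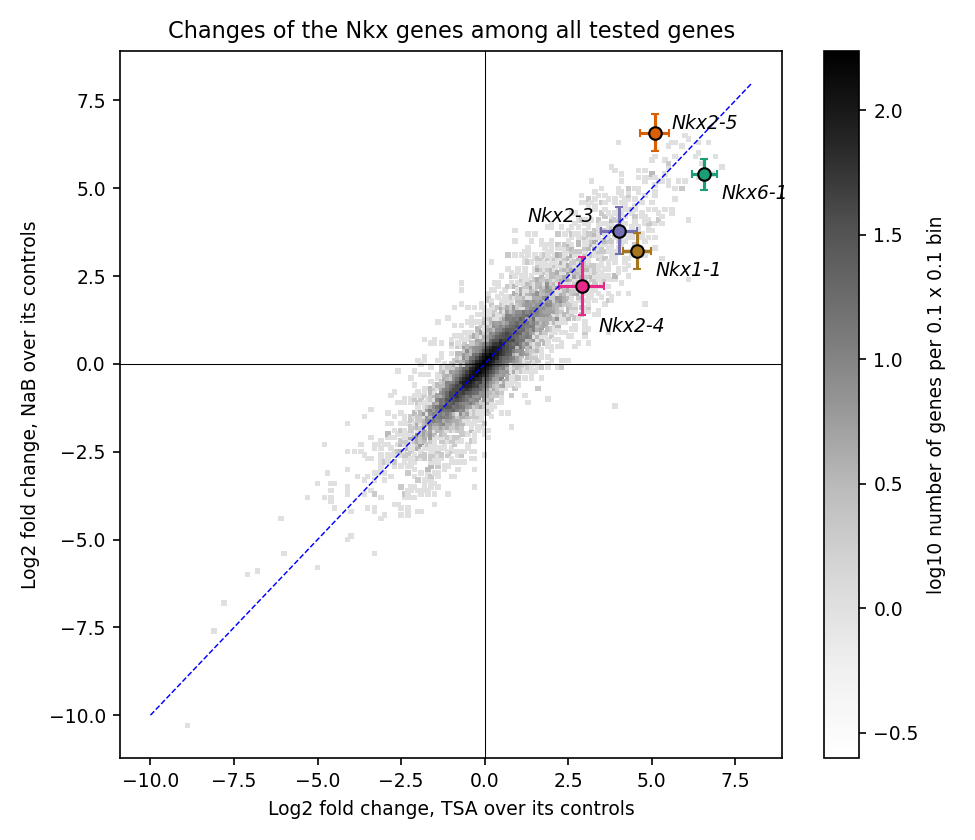
Log2 fold change over controls with TSA (x axis) and with NaB (y axis); grey bins hold all 15717 tested genes, shaded by log10 number, coloured points are the Nkx genes with standard errors, and the dashed line marks equal changes. Nkx2-5 lies above the line and the other 4 on the side of the larger TSA change.

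Whether the members changed to a different extent with NaB than with TSA was then compared. This draws on the libraries that the rule used, and the rule favours a smaller NaB change in Nkx2-4, which was listed for TSA alone. Of the 4 genes listed for both drugs, Nkx6-1, Nkx2-3 and Nkx1-1 had a smaller value with NaB and Nkx2-5 a larger one, and none of the 5 differences was called (limma, 47 genes called, 0.299% of those tested). The log2 difference, NaB minus TSA, was 1.49 for Nkx2-5 (95% interval -0.02 to 3.00, adjusted p = 0.404, limma) and -1.18 for Nkx6-1 (-2.45 to 0.09, adjusted p = 0.430). 0 of the 5 had an unadjusted p below 0.05, which 12.6% of the tested genes had. Nkx1-1 had -1.34 (-2.79 to 0.11), Nkx2-4 had -0.69 (-3.05 to 1.67) and Nkx2-3 had -0.22 (-2.13 to 1.68). The intervals leave room for differences of several-fold in most members. With the culture pairs as a block 404 genes were called, and still 0 of the 5 (adjusted p between 0.271 and 0.919, limma). edgeR called 0 of the 5 too, and DESeq2 gave an adjusted p for Nkx6-1 and Nkx2-5 only, neither called.

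A direct comparison of the treated libraries, chosen after the values were seen, left aside the few control reads. Nkx2-5 was higher in both NaB libraries than in any TSA library, a ratio of 2.43 (2.01 to 2.95, counting error only), and 20.2% of the tested genes separated in this direction. Its log2 difference was 1.31 (95% interval 0.25 to 2.38), with an adjusted p of 0.132 in limma (unadjusted p = 0.0204, and 23.0% of the tested genes had an unadjusted p below 0.05), so that 0 of the 5 members were called beside 694 genes, 4.42% of those tested. The call for Nkx2-5 depended on the tool. Its adjusted p was 0.0367 with edgeR, 0.0173 with DESeq2, 0.0275 in limma with a pseudocount of 5 and 0.0475 in limma with the treated libraries alone, and it ranged from 0.0173 to 0.412 over 17 alternatives, 4 of which passed the threshold. Nkx6-1 and Nkx2-4 were lower in both NaB libraries than in any TSA library, as were 22.1% of the tested genes, with log2 differences of -0.50 (-1.40 to 0.39) and -0.55 (-2.21 to 1.12). Nkx1-1 and Nkx2-3 overlapped between the drugs, with log2 differences of -0.35 (-1.38 to 0.67) and 0.81 (-0.54 to 2.15). For Nkx2-3 this is the opposite sign to its drug difference of -0.22. Its ratio of NaB to TSA libraries was 1.55 (1.06 to 2.27, counting error only).

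The untreated cultures of the 2 projects were compared in the same way. 4 of the 5 members had a higher mean log2 value in the NaB controls than in the TSA controls. 0 of the 5 were called (limma), beside 243 genes, 1.55% of those tested. 0 had an unadjusted p below 0.05 in limma, beside 19.4% of all. edgeR also called 0 of the 5, and DESeq2 0 of the 4 to which it gave an adjusted p, all but Nkx2-4. The members passed the filter through their treated libraries and had at most 4 reads in any control library. So few reads leave little room for a call, and these 0 calls do not show that the controls were alike. The largest values were 1.03 for Nkx2-3 (95% interval -0.32 to 2.37) and 0.99 for Nkx1-1 (-0.04 to 2.01). At these depths they rest on differences of a few reads. Control reads enter the drug difference above: Nkx1-1 had 1 read in 3 TSA controls and 3 reads in 2 NaB controls.

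**Figure D4:**
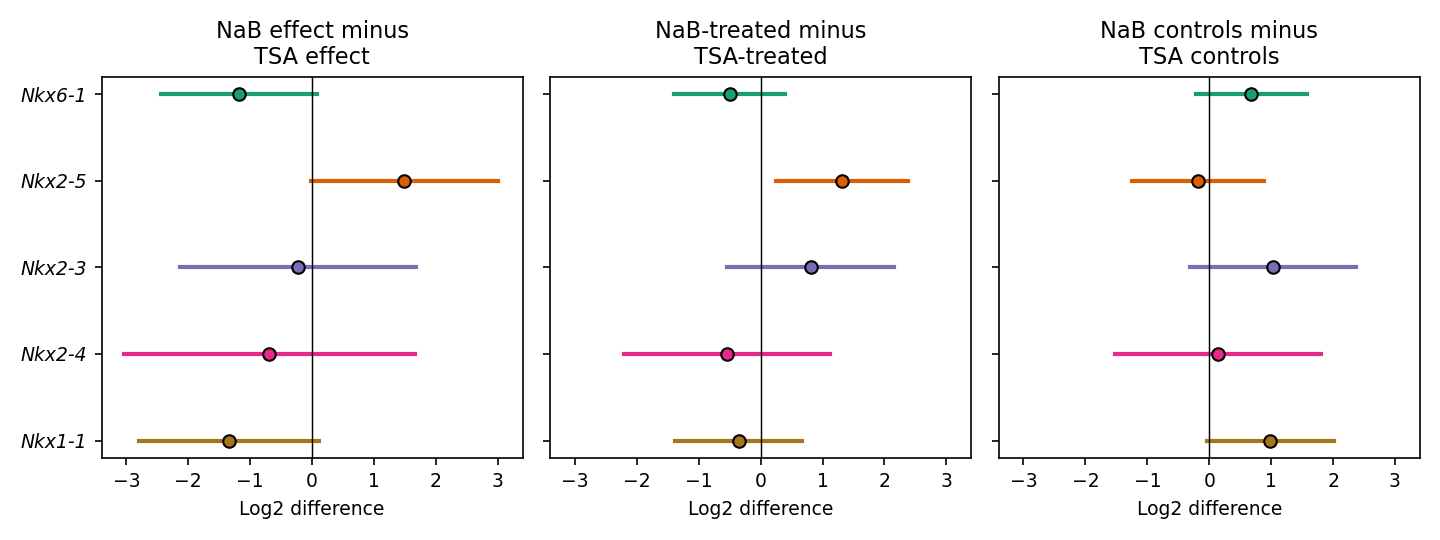
Log2 differences (x axis) of the 5 Nkx genes with 95% intervals from limma for NaB effect minus TSA effect, for the treated libraries and for the controls; the vertical line marks 0. Nkx2-5 has the largest positive difference among the 5 in the first panel, 1.49, and in the second, 1.31.

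Within the TSA group, TSA replicate 2 was the lowest of the 3 in all 5 members. The same held for 39.4% of all tested genes and for 56.5% of the 356 tested genes with at most 3 reads in every TSA control. Without this library the log2 fold changes with TSA were 6.78 for Nkx6-1, 5.36 for Nkx2-5, 4.59 for Nkx2-3, 3.03 for Nkx2-4 and 4.68 for Nkx1-1, and the log2 difference of Nkx2-5 between treated libraries was 1.03 (adjusted p = 0.270, limma). Across the 10 libraries the members correlated with each other at a Pearson r between 0.801 (Nkx2-4 with Nkx1-1) and 0.975 (Nkx6-1 with Nkx1-1) on the log2 scale. The libraries fall into treated and control clusters, so these values are a description and carry no test.

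The genes whose pattern was most like that of each member, by Pearson r of log2 values over the 10 libraries, were drawn from a large pool, since 955 tested genes had an r above 0.95 with Nkx6-1, 861 with Nkx2-5, 738 with Nkx1-1, 558 with Nkx2-3 and 18 with Nkx2-4. For Nkx6-1 they were Ift27 (r = 0.997), a subunit of intraflagellar transport in cilia, the homeobox gene Hmx1 (0.997) and the RNA helicase gene Ddx43 (0.997). For Nkx2-5 the first was ENSRNOG00000056895 (0.994), followed by Bmp8a (0.993), a ligand of the BMP family, and Azin2 (0.993), an antizyme inhibitor. Fut10 (0.995), a fucosyltransferase gene, was second for Nkx1-1. The other genes at the top of Nkx1-1, Nkx2-3 and Nkx2-4 had no paired symbol. The size of the change is not part of this likeness: Ift27 changed by 1.61 on the log2 scale with TSA and Ddx43 by 6.38.

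On the chromosome, 2 of the 10 genes that flank the members in RefSeq could be paired, compared with 7.886% of protein-coding genes. Both were paired because they stand among the upregulated rows. Stc2, which encodes the secreted glycoprotein stanniocalcin 2 and lies before Nkx2-5, had normalized counts of 78.1, 63.9 and 43.7 in the TSA controls and 126, 139 and 127 with TSA. It changed by 1.10 on the log2 scale (standard error 0.26) with TSA and by 0.90 (standard error 0.32) with NaB. Cds1, a gene of phospholipid synthesis beside Nkx6-1, had 1192, 1012 and 1159 in the TSA controls and 2576, 2465 and 2327 with TSA. It changed by 1.13 on the log2 scale (standard error 0.11) with TSA and by 1.23 (standard error 0.14) with NaB. In the controls of both projects, Nkx6-1 and Nkx2-5 had at most 1 read in each library.

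The partners of the Nkx factors were looked up in lists of pathway genes. Since symbols could be paired for upregulated genes only, the lists say nothing of genes that fell or did not change, and the paired members had to rise. The pairing also missed genes that rose: 1911 genes were paired, whereas 3540 tested genes were called higher with TSA. An unpaired gene may thus have risen, fallen or stayed the same. Of 15 genes of Sonic hedgehog signalling 3 were paired, Gli1, Foxa1 and Shh itself. Gli1, the transcription factor and readout of the pathway, had normalized counts of 1.05, 3.09 and 6.40 in the TSA controls and 164, 113 and 200 with TSA, and 11.4 and 25.1 in the NaB controls against 159 and 121 with NaB. Its log2 fold change was 5.30 (standard error 0.46) with TSA and 2.96 (standard error 0.56) with NaB. Shh, the ligand, had 16.9, 11.3 and 16.0 in the TSA controls and 59.1, 49.8 and 49.6 with TSA, and 26.9 and 27.1 in the NaB controls against 39.7 and 42.4 with NaB. The log2 fold change of Shh was 1.79 (standard error 0.23) with TSA and 0.58 (standard error 0.28, not called) with NaB.

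Of 23 factors of ventral progenitors and motor neurons 10 were paired, and all 10 were called higher with both drugs, beside 22.5% of all tested genes with TSA and 21.2% with NaB, as the pairing selects. The largest log2 fold changes with TSA were those of Sim1 (5.59), a factor of V3 interneurons and the hypothalamus, Irx3 (4.91), whose domain borders the ventral progenitors, and Mnx1 (4.63), a factor of motor neurons. The smallest were those of the proneural gene Neurog2 (1.15), and of the LIM factors Lhx3 (1.16) and Lhx4 (2.32). 13 of 26 homeobox relatives of the NK-like class were paired and 12 of them were tested, Hmx2 having too few reads. 12 were called higher with TSA (22.5% of all tested genes) and 11 with NaB (21.2%), all but Hlx. Hmx1 (5.71), Barhl2 (5.53) and Tlx3 (4.22) had the largest changes with TSA, and Hlx (1.46), En2 (1.95) and Hmx3 (2.23) the smallest. 0 genes were paired of 23 of the oligodendrocyte lineage and of 20 for TLE corepressors and deacetylase complexes, so that the latter partners of the Nkx factors were not analysed here.

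Of 25 cardiac partners and targets of Nkx2-5, 9 were paired, and 8 were called higher with each drug, all but Myl7 with TSA (22.5% of all tested genes) and all but Hopx with NaB (21.2%). The largest changes with TSA were those of the T-box gene Tbx3 (4.52), Irx4 (4.40) and Gata4 (4.19), a DNA-binding partner of Nkx2-5. The smallest called with TSA were those of Hopx (1.43), the troponin gene Tnni3 (1.98) and Gata6 (2.86). Of 26 pancreatic islet genes 5 were paired and 3 tested, Mnx1 (4.63), Mafa (4.19) and the receptor gene Glp1r (2.31), and Pdx1 and Rfx6 had too few reads. Of 15 genes of interneurons from the medial ganglionic eminence 2 were paired, Lhx8 (3.02) and Pvalb (1.70, not called with NaB). Over these lists 40 different genes were paired and 37 tested. A difference between the changes with NaB and TSA was called in 0 of the 37, beside 0.299% of all tested genes (limma without a block). 6 of the 37 had an unadjusted p below 0.05 in limma, beside 12.6% over all genes. The Gli1 difference was -2.34 (standard error 0.72, adjusted p = 0.234, limma). Its NaB libraries (159 and 121 normalized counts) lay within the range of its TSA libraries (113 to 200). Its NaB controls (11.4 and 25.1) lay above its TSA controls (1.05 to 6.40). With the culture pairs as a block 404 genes were called for the difference between the drug changes, and no blocked value is given for the list genes.

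**Figure D5:**
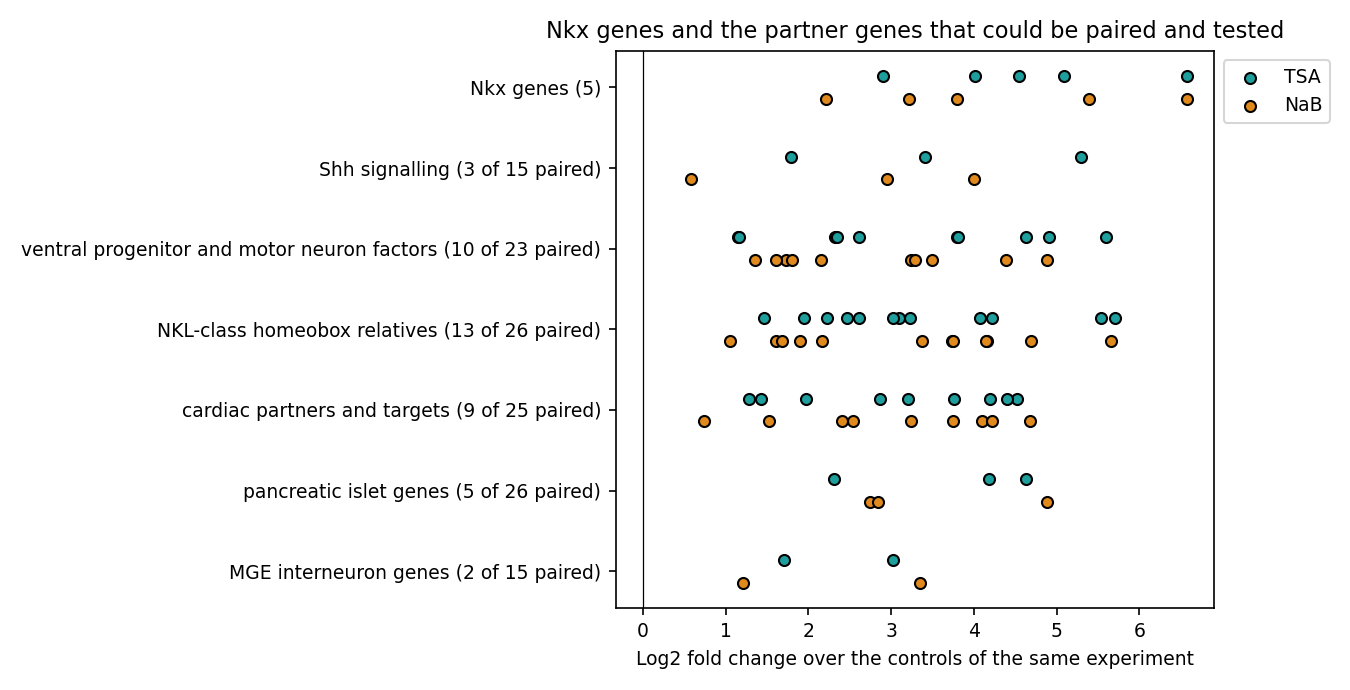
Log2 fold change (x axis) over the controls of the same experiment for the Nkx genes and the tested partner genes of each list, with TSA in turquoise and NaB in orange; each point is a gene, and Mnx1 and En1 stand in more than 1 list. All points lie above 0, as the pairing through upregulated genes selects.

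Markers of other cell types were looked up in the same way, and those that could be paired stand among the upregulated rows, so that a rise was fixed by the pairing. Of 6 markers of spinal motor neurons 3 were paired (Mnx1, Lhx3 and the acetylcholine transporter gene Slc18a3, the most abundant), and their summed normalized counts were 93.9, 77.3 and 113 in the TSA controls and 464, 308 and 408 with TSA, and 56.9 and 65.8 in the NaB controls and 359 and 394 with NaB. Of 5 markers of cardiac muscle 2 were paired (Tnni3, the most abundant, and Myl7), with sums of 5.27, 4.12 and 7.47 in the TSA controls and 19.7, 19.9 and 30.1 with TSA, and 7.25 and 4.18 against 24.6 and 33.7 with NaB. The muscle genes thus summed to at most 33.7 normalized counts in any library. Of 5 markers of beta cells only Pdx1 was paired, at 0, 0 and 1.07 in the TSA controls, 8.44, 2.71 and 7.77 with TSA, 0 and 0 in the NaB controls and 0.945 and 3.86 with NaB. Of 4 endothelial markers Kdr was paired, at 22.2, 12.4 and 20.3 in the TSA controls and 113, 82.3 and 132 with TSA, and at 17.6 and 37.6 against 68.0 and 59.8 with NaB. The unpaired markers, the insulin genes and most contractile genes among them, were not analysed here, and the part of these cell types in the change of the Nkx genes was not tested.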

How the data were processed

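Bulk RNA-seq of 10 libraries was analysed. Per the labels and methods, paired-end reads had been aligned to the rat genome (Rnor_6.0) with STAR 2.7.9a, counted per gene with featureCounts 2.0.1 and normalized with DESeq2 1.29; whether counting used strand is not given in the sources used here, so reads of an antisense gene cannot be told apart. The authors deposited normalized counts, a signal of reads divided by 1 size factor per library, and 100.0% of the deposited values became whole reads (within 0.01) after multiplication by that factor. The study's supplemental columns of fold changes and p-values were not used.

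Genes were filtered with filterByExpr (minimum count 10; 15717 of 32883 kept, all 5 members described among them) and fitted with limma 3.58.1 (R 4.3.3; trend, log2(normalized count + 1), 4 groups, all 10 libraries). Calls needed a Benjamini-Hochberg adjusted p below 0.05 over all tested genes and a log2 change of 0.5 or more in size. On simulated counts of 15717 genes with 200 changed, the step recovered 165 for the TSA comparison (8 false calls) and 141 for the NaB comparison (3 false). No such recovery is given here for the drug difference or for the comparisons of controls and of treated libraries. edgeR 4.0.16 (quasi-likelihood), DESeq2 1.42.0, pseudocounts of 0.5 and 5, no filter, a mean of at least 50, library totals, a pair block, fewer libraries and leaving out each library were alternatives. The intervals of the ratios cover counting error only, since the reads of each group were pooled and the spread between cultures is left out. PCR reads without molecular identifiers are not independent molecules, so these intervals may be too narrow for counting error as well.

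Control and treated cultures were paired by plate, per the methods and, for TSA, the replicate numbers of the titles; deviations from the group means correlated within pairs (r = 0.284, 0.392 and 0.314 for TSA and 0.342 for NaB). The main fit has no term for the pairs, so its p-values measure the spread of cultures around their group means and not that of the paired differences.

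Symbols came only from the identifier and symbol columns of the supplemental list (1911 upregulated genes), because the reference table holds no matching identifiers. The planned tests of the other Nkx genes and of the lists against unchanged genes could therefore not be made. Genes were named by rule: the members, their chromosomal neighbours, the 3 largest and 3 smallest TSA changes among called genes of each list, the markers, and the 3 genes with the highest r to each member. 1 further gene of the list is not reported here. The members and lists were chosen with earlier results of these data known. Promoters are from RefSeq (GRCr8).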

Additional observations from a re-analysis of the deposited data

How the results depend on the processing

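The members kept the direction of their change with each drug under every alternative that kept them in the table, and 33 of 180 single-gene fold changes moved by more than the spread between replicates, most of them with the pseudocount or the tool. The median log2 fold change of the 5 with TSA, 4.55, was 5.32 with a pseudocount of 0.5, 2.66 with 5, 6.08 with edgeR and 6.32 with DESeq2. With NaB, 3.79, it was 2.42 with a pseudocount of 5, 4.59 with edgeR and 4.76 with DESeq2. Leaving out each library gave 4.38 to 4.89 and 3.42 to 4.17. No median could be given for genes with a mean of at least 50, which not all members reached.

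The number of Nkx genes called between treated libraries, 0, was 1 (Nkx2-5) with a pseudocount of 5, with edgeR, with DESeq2 and with the treated libraries alone. The number of all genes called for the drug difference, 47, was 31 without a filter, 71 with library totals, 252 with DESeq2 and 404 with the replicate block, and 1 to 45 when a library was left out, with 1 without NaB control replicate 2 and 3 without NaB control replicate 1. For the controls, 243, it was 104 without a filter, 583 with DESeq2, 22 with the controls alone and 22 to 461 when a library was left out, lowest without NaB control replicate 2 and highest without TSA control replicate 2. For the treated libraries, 694, leaving out a library gave 234 to 688, lowest without NaB replicate 2. In the drug difference the block changed no call of a member. The comparisons of controls and of treated libraries, including that of Nkx2-5, have no value under the block, because each pair lies within 1 project, nor has the drug difference with fewer libraries.

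Uncalled differences of 3 members changed sign. For Nkx2-3 the drug difference was 0.36 with a pseudocount of 5, 0.31 without TSA replicate 3 and 0.15 without NaB replicate 1 (-0.79 to 0.31 when a library was left out, and -2.62 with edgeR). For Nkx2-4 it was 0.49 without NaB control replicate 1 and -1.87 without replicate 2, and its control difference was -0.37 without TSA control replicate 2, -1.04 without NaB control replicate 1 and 1.33 without replicate 2. The control difference of Nkx2-5 was 0.0019 without TSA control replicate 3 and 0.34 and -0.69 without NaB control replicates 2 and 1. The cause was not tested. The tests of other Nkx genes and of whole lists were not run. Control counts of 0 to 4 reads limit all ratios of treated to control libraries.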

Other observations

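TSA replicate 2 was the lowest of the 3 TSA libraries in 28 of the 37 tested partner genes, beside 39.4% of all tested genes and 56.5% of those with at most 3 reads in every TSA control, and it was the highest in others, such as Neurog2 (67.5, 81.4 and 46.6 normalized counts in replicates 1 to 3) and Hopx (442, 479 and 272). Barhl2, a homeobox gene of spinal and retinal neurons, had normalized counts of 82.5, 20.8 and 112 in TSA replicates 1 to 3, and Gata4 had 33.8, 7.24 and 42.7. Mnx1 had 44.1, 16.3 and 59.3. These genes were named after their values were seen, and the cause was not tested.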
